A study of Homo sapiens with 56 samples.

Results

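Established ovarian cancer cell lines grown in DMEM/F12 (1:1) were compared by gene expression array, the JHOS lines JHOS2, JHOS3 and JHOS4 on 1 side and the OV lines OV7, OV17R and OV56 on the other. The rule for the lines used their names and their shared base medium and no expression value, though the comparison was taken up with earlier results of these data known. The 6 lines gave 11 of the 56 arrays of the series, 6 for the JHOS lines and 5 for the OV lines. The whole series holds 28 ovarian cancer lines on Affymetrix Human Gene ST arrays, with 2 arrays a line. The second array of OV56 was left out because its values span a narrower range than those of the other arrays of these 6 lines. HEYC2 and OVCA420, which appear here only among the other 22 lines, each have 1 such array as well (SDs of 1.844 and 1.892 log2 units, correlations of 0.748 and 0.615 with their duplicates), which was kept in the mean of its line. The medium of the JHOS lines held 10% fetal bovine serum and 0.1 mM non-essential amino acids. The medium of the OV lines held 5% serum, 10 μg/ml insulin and hydrocortisone, at 0.4 μg/ml for OV17R and 0.5 μg/ml for OV7 and OV56. The labels name no other agent for these lines. Arrays of 1 line share its cells, so the line and not the array was the unit of comparison (3 against 3). Line set and medium supplements were changed together and cannot be told apart.

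Ovarian carcinoma lines span a range of states between epithelial and mesenchymal. Epithelial cells are held together by E-cadherin, claudins and desmosomes, build a keratin cytoskeleton, and keep these genes on with transcription factors such as GRHL2, whereas ZEB1 and related repressors turn junction genes off and accompany matrix production. Hydrocortisone binds the glucocorticoid receptor (NR3C1), which enters the nucleus and raises a set of direct target genes in most cell types, among them TSC22D3, DUSP1, PER1 and ZBTB16.

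The 11 arrays had medians of at most 6.14 log2 units and SDs between 2.245 and 2.324, against an SD of 1.893 for the second array of OV56, which correlated at 0.806 with its own duplicate. The duplicates of the other 5 lines correlated at 0.9895 to 0.9969. Over all 18377 genes, line means correlated at 0.936 to 0.952 among the JHOS lines, at 0.919 to 0.942 among the OV lines, and at 0.915 to 0.942 between the sets. The line most like JHOS3 was JHOS2, and the line most like OV7 was OV56, whereas JHOS2 and OV56 were nearest to DOV13, JHOS4 to OAW28 and OV17R to OVCAR3. The members of a set were thus not each other's nearest lines throughout. PAX8, a Müllerian transcription factor that marks most serous carcinomas, lay at 8.72 to 9.45 in the JHOS lines and at 9.84, 10.57 and 6.87 in OV17R, OV56 and OV7. The values are of whole cultures, in which fewer cells of a type and less RNA per cell cannot be told apart.

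No gene passed the test between the sets. At an adjusted p under 0.05 and a difference of at least 1 log2 unit (limma on line means, Benjamini-Hochberg over all genes), 0 of 18377 genes (0.0%) were called in either direction, and the lowest adjusted p was 0.106. At an unadjusted limma p under 0.05, 565 genes (3.07%) had the higher mean in the JHOS lines and 524 (2.85%) in the OV lines. Whatever the p, 53.6% of all genes had the higher mean in the OV lines, the share to set beside such counts in the lists below. When the 11 arrays were fitted with line as a random block, 27 genes were called higher in the JHOS lines and 23 in the OV lines. The values are therefore given as levels and their separation, not as calls. An exact permutation test of 3 lines against 3 cannot go below a p of 0.1. Line means of the sets did not overlap for 988 genes (5.38%) with the higher values in the JHOS lines and for 1313 genes (7.14%) with the higher values in the OV lines. A stricter criterion, a gap of at least 1 log2 unit between the nearest lines of the sets, was met by 32 genes with the higher values in the JHOS lines (0.174%) and 19 with the higher values in the OV lines (0.103%). For all 51 of these genes, termed separated genes here, the 6 JHOS arrays also did not overlap with the 5 OV arrays. With the second array of OV56 included, there were 34 and 12 separated genes, 30 and 10 of them among the 51. With that array, 5.03% of all genes were without overlap with the higher values in the JHOS lines and 8.8% with the higher values in the OV lines. Of the lists, 8 epithelial junction genes were then without overlap with the higher levels in the JHOS lines, and 9 glucocorticoid response genes, 5 matrix genes, 5 inflammatory genes and 4 fibroblast markers with the higher levels in the OV lines.

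**Figure D1:**
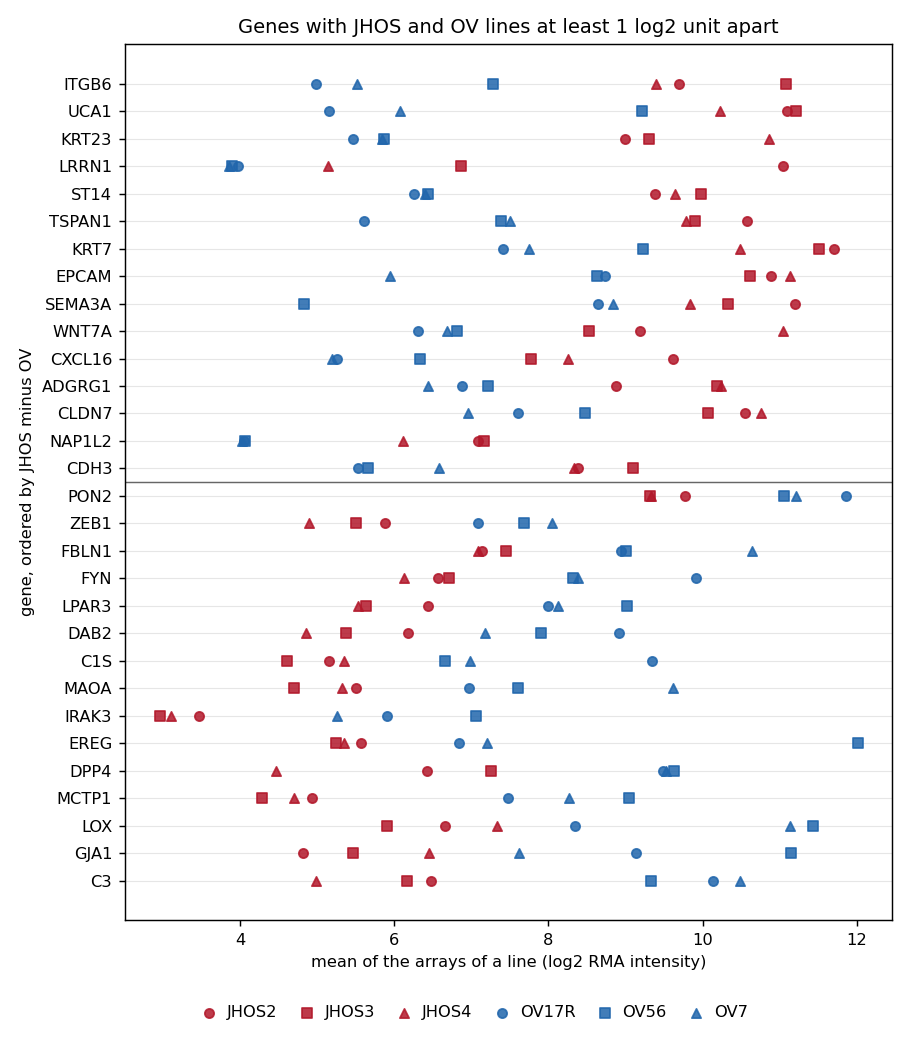
Log2 RMA intensity (x axis) of the 15 genes with the largest differences in each direction among the separated genes (y axis), with a red symbol for each JHOS line and a blue symbol for each OV line, each the mean of the line's arrays. The 3 red symbols lie at least 1 log2 unit to the right of the 3 blue ones in the upper block and to the left of them in the lower block, and ITGB6 and C3 have the largest differences, 4.13 and -4.10 log2 units (JHOS minus OV).

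The lowest adjusted p of the comparison was that of ST14. ST14 encodes matriptase, a membrane-anchored serine protease of epithelia. Its level was 9.38 in JHOS2, 9.98 in JHOS3 and 9.64 in JHOS4, and 6.26, 6.44 and 6.40 in OV17R, OV56 and OV7. Both sets were tight and lay far apart, with a difference of 3.30 log2 units (9.84-fold, SE 0.22) and an adjusted p of 0.106 (limma). Across the alternative fits its adjusted p ranged from 0.000893, with 11 arrays and line as a random block, to 1.0. PRSS8 encodes prostasin, a membrane protease that acts with matriptase in epithelial barriers. It lay at 8.80, 8.29 and 8.84 in JHOS2, JHOS3 and JHOS4 and at 6.24, 6.14 and 6.09 in OV17R, OV56 and OV7, a difference of 2.48 (SE 0.21, adjusted p = 0.212). The Kunitz inhibitors of these proteases were closer between the sets. SPINT1 (HAI-1) was 1.55 log2 units higher in the mean of the JHOS lines (SE 0.54), and SPINT2 (HAI-2) 0.68 (SE 0.29), and both overlapped between the sets. Among the other 22 lines of the series, 3 reached the lowest JHOS level of ST14 and 6 that of PRSS8.

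Of 22 measured genes of epithelial junctions, all 22 had the higher mean in the JHOS lines, with a median difference of 1.51 log2 units against -0.02 over all genes. For 10 of them (45.5%) the lines did not overlap (5.38% of all genes in that direction), and 5 were separated, namely EPCAM, CLDN7, CDH3, LSR and ST14. None passed the test. CLDN7, a tight junction claudin, lay at 10.55, 10.07 and 10.76 in JHOS2, JHOS3 and JHOS4. In OV17R, OV56 and OV7 it lay at 7.61, 8.47 and 6.96, and the difference was 2.78 (SE 0.43, adjusted p = 0.386). EPCAM, an epithelial adhesion molecule, lay at 10.89, 10.62 and 11.14 in the JHOS lines. It was at 8.74 in OV17R and 8.63 in OV56, while OV7 had 4.69 on its first array and 7.18 on its second. The difference was 3.11 (SE 0.78, adjusted p = 0.757), and the wide error comes with the spread among the OV lines (SD 1.59, n = 3, against 0.26 in the JHOS lines). CDH1 (E-cadherin), the core adherens junction protein, lay at 9.33, 7.95 and 9.34 in JHOS2, JHOS3 and JHOS4 and at 6.81, 6.25 and 7.17 in OV17R, OV56 and OV7, a difference of 2.13 (SE 0.47, adjusted p = 0.663). On single arrays the sets nearly touched, since the second array of OV7 had a CDH1 level of 7.84 and the first of JHOS3 had 7.94. CDH3 (P-cadherin) was separated by a gap of 1.75 log2 units and LSR, a protein of tricellular junctions, lay at 9.55 to 10.17 in the JHOS lines and 7.58 to 8.35 in the OV lines. Members also differed by single line. RAB25, an epithelial vesicle GTPase, was high in JHOS4 (10.58) and at 5.04 to 5.56 in the other 5 lines, and CLDN1 had its highest level in OV56.

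Keratins followed in part. Of 13 measured keratins, 11 had the higher mean in the JHOS lines (median difference 0.59). The lines did not overlap for 3 of them (23.1%), all with the higher levels in the JHOS lines (5.38% of all genes), and 2 were separated, KRT7 and KRT23. KRT23, a type I keratin, lay at 8.99, 9.30 and 10.86 in JHOS2, JHOS3 and JHOS4 and between 5.47 and 5.87 in the OV lines. Its gap of 3.12 log2 units was the widest of all 51 separated genes, the difference was 3.99 (SE 0.51, adjusted p = 0.299), and 1 of the other 22 lines reached the lowest JHOS level. KRT7, a keratin of simple and glandular epithelia, lay at 10.49 to 11.70 in the JHOS lines and at 7.41, 9.23 and 7.75 in OV17R, OV56 and OV7 (difference 3.11, SE 0.58, adjusted p = 0.556). KRT5, a basal keratin, was at 12.04 in JHOS3 and 9.66 in JHOS4 but lay in JHOS2 just under the 6.03 to 6.36 of the OV lines. KRT8 overlapped, at 12.11 to 13.17 in the JHOS lines and 10.13 to 12.87 in the OV lines. Of 16 genes of desmosomes and hemidesmosomes, 11 had the higher mean in the JHOS lines and 3 did not overlap (18.8%, against 5.38% of all genes), among them DSP (desmoplakin), which lay at 9.27 to 9.79 in the JHOS lines and at 8.31, 7.99 and 5.98 in OV17R, OV56 and OV7.

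Among the transcription factors, GRHL2 and ZEB1 were separated in opposite directions. GRHL2, a grainyhead factor that activates junction genes, lay at 7.07 in JHOS2, 7.99 in JHOS3 and 8.87 in JHOS4, and at 5.42, 5.52 and 5.69 in OV17R, OV56 and OV7. The JHOS lines differed among themselves by more than the OV lines did (SD 0.90 against 0.13, n = 3 each), and the difference was 2.44 (SE 0.45, adjusted p = 0.556). ZEB1, a repressor of E-cadherin, had the reverse order, with 5.88, 5.50 and 4.90 in JHOS2, JHOS3 and JHOS4 and 7.09, 7.68 and 8.05 in OV17R, OV56 and OV7 (difference -2.18, SE 0.35, adjusted p = 0.400). Within the JHOS lines, the line with the highest GRHL2 level, JHOS4, had the lowest ZEB1 level, and JHOS2 was the reverse. Within the OV lines both genes had the same order, lowest in OV17R and highest in OV7. ZEB2, the paralogue of ZEB1, lay at 4.51 to 5.07 in the JHOS lines and at 6.89, 5.69 and 6.77 in OV17R, OV56 and OV7 (difference -1.62, SE 0.35). SNAI2 (Slug) overlapped, with 6.25 to 9.33 in the JHOS lines and 7.80 to 10.63 in the OV lines. Of 17 epithelial transcription and splicing factors, 15 had the higher mean in the JHOS lines (median 0.46) and 3 did not overlap (17.6%, against 5.38% of all genes). EHF, an ETS factor of epithelia, was at 9.85 and 10.37 in JHOS2 and JHOS4 and at 4.30 in JHOS3, below all 3 OV lines. Of 10 EMT-inducing factors, 7 had the higher mean in the OV lines (median -0.39), and 2 did not overlap (20.0%, against 7.14% of all genes), ZEB1 and ZEB2.

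**Figure D2:**
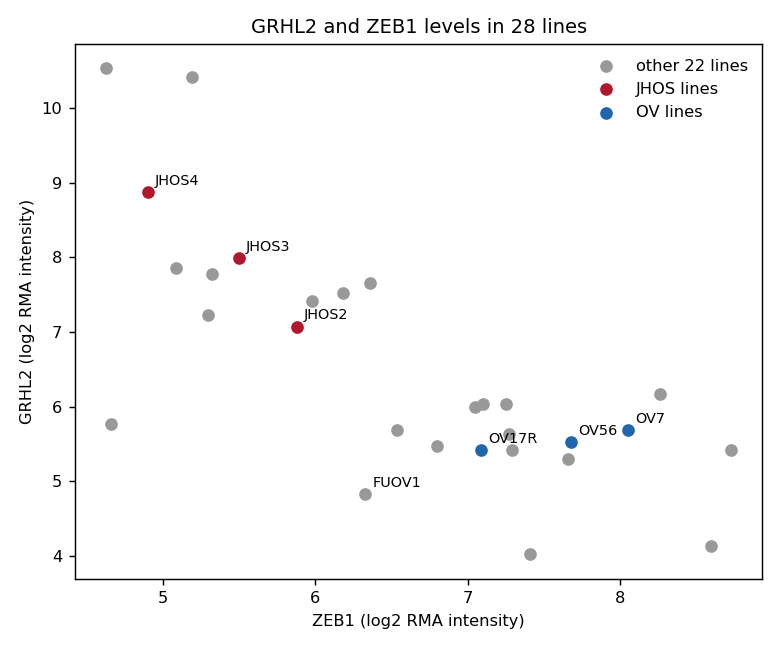
GRHL2 level (y axis) against ZEB1 level (x axis), both in log2 RMA intensity, for 28 cell lines, each point the mean of a line's arrays, with the JHOS lines in red, the OV lines in blue and the other 22 lines in grey. The JHOS lines lie at 7.07 or more of GRHL2 and 5.88 or less of ZEB1, a corner they share with 5 other lines (6 with HEYC2 and OVCA420 as their second arrays alone), and the OV lines at 5.69 or less of GRHL2 and 7.09 or more of ZEB1, which they share with 6 other lines (7 with those arrays alone), while no other line reaches both the lowest JHOS level of GRHL2 and the lowest OV level of ZEB1.

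Since ZEB1 and the SNAI factors bind the E-box CACCTG, the promoters of the separated genes were searched for it on both strands (CAGGTG on the other). RefSeq promoter windows of 300 bases on GRCh38.p14, from 250 bases before a start site to 50 after it, were found for 17 of the 32 genes with higher levels in the JHOS lines, in 25 windows, and for 17 of the 19 with higher levels in the OV lines, in 32 windows. The E-box was present in 16 of 25 windows (64.0%) of the former and in 8 of 32 (25.0%) of the latter, against 19.8% of all 20067 windows of measured genes. Counted by gene, since windows of 1 gene may overlap, it was present for 10 of 17 genes (58.8%) and 6 of 17 (35.3%), against 24.7% of 14208 genes. The grainyhead motif AACCGGTT was found in none of these windows and in 0.174% of all windows. The core hexamer of glucocorticoid receptor sites, AGAACA, was found in 3 of 32 windows (9.38%) of genes with higher levels in the OV lines, in 6 of 25 (24.0%) of those with higher levels in the JHOS lines, and in 11.5% of all windows. None of the 3 motifs contains another. A match is a stretch of letters and not a bound site. The E-box was densest in CLDN7, with 5 matches in 1 window, and in TMEM30B, with 4. TMEM30B is a subunit of lipid flippases, and its level was 8.65 to 8.94 in the JHOS lines and 6.58 to 6.89 in the OV lines (difference 2.08, SE 0.19, adjusted p = 0.212). The 250 bases before the start site are printed for these 2 genes, for ADGRG1, an adhesion G protein-coupled receptor with 2 windows of 2 matches each, and for ZEB1 itself, whose 2 windows hold 1 and 3 matches, each 5′ to 3′ on the strand of the gene with the E-box in capitals.
CLDN7, chr17:7262479-7262728, minus strand: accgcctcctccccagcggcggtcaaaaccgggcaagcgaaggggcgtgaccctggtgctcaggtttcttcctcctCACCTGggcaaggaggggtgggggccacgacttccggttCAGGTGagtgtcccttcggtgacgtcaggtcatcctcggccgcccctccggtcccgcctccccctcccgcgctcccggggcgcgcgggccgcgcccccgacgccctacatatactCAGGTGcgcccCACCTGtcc
TMEM30B, chr14:61281339-61281588, minus strand: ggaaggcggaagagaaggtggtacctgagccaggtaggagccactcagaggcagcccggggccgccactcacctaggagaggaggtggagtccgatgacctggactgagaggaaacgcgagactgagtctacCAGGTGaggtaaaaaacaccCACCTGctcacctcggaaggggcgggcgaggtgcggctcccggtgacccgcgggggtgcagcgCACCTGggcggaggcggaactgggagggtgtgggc
ADGRG1, chr16:57619488-57619737, plus strand: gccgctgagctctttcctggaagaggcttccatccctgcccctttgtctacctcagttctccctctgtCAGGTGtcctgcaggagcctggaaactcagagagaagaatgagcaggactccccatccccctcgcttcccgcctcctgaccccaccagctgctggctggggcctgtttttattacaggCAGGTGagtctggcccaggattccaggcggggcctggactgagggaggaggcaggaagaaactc
ZEB1, chr10:31318966-31319215, plus strand: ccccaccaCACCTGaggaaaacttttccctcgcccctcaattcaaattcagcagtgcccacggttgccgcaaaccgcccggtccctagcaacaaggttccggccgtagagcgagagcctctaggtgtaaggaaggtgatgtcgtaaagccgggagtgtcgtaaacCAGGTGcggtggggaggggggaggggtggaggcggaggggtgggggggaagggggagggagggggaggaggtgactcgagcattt
In CLDN7, 4 of the 5 matches lie in these bases and the last in the 50 after the start site, and in TMEM30B 3 of the 4. The bases of ADGRG1 are from the first of its windows and hold both matches of it, and those of ZEB1 are from the window with 3 matches and hold 2 of them. Promoters of ST14, EPCAM and PRSS8 were not analysed here.

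Further separated genes with higher levels in the JHOS lines encode surface and secreted proteins. ITGB6, the beta subunit of the integrin that activates latent TGF-beta, lay at 9.69, 11.08 and 9.39 in JHOS2, JHOS3 and JHOS4 and at 4.98, 7.28 and 5.52 in OV17R, OV56 and OV7. Its difference of 4.13 log2 units (17.5-fold, SE 0.73, adjusted p = 0.515) was the largest of the genes separated in this direction. WNT7A, a Wnt ligand of Müllerian duct development, lay at 9.19, 8.52 and 11.04 in the JHOS lines and at 6.31 to 6.82 in the OV lines. ADGRG1 (gap 1.67), the tetraspanin TSPAN1 (gap 2.29) and the chemokine CXCL16 (gap 1.43) were also separated, though the 2 arrays of a line differed by up to 2.00 log2 units for TSPAN1. LRRN1, a leucine-rich repeat membrane protein, was separated although the JHOS lines ranged from 5.14 in JHOS4 to 11.04 in JHOS2, because the OV lines lay at 3.86 to 3.97. UCA1, a long non-coding RNA of carcinomas, lay at 10.23 to 11.21 in the JHOS lines, and OV56 (9.22) came within 1.00 of them while OV17R and OV7 had 5.16 and 6.08. SEMA3A, a secreted guidance cue, was likewise just inside the criterion, with a gap of 1.00. NAP1L2, a nucleosome assembly protein, was at 7.08, 7.17 and 6.11 in the JHOS lines and 4.02 to 4.07 in the OV lines (difference 2.74, SE 0.29, adjusted p = 0.238). The rest of the 32 were RGCC, S100A14, H3C12, ISL1, SLC26A2, ADAP1, VAMP8, TMC4, SAMD12, GLB1L2, LANCL2, ZBED10P and FAAH2, with gaps from 1.01 to 1.43. Of these, H3C12 belongs to a family of near-identical histone genes and ZBED10P is a pseudogene, so their probe sets may also read related transcripts.

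The largest difference among the genes separated with higher levels in the OV lines was that of C3. C3, the central complement component, lay at 6.48, 6.17 and 4.99 in JHOS2, JHOS3 and JHOS4 and at 10.13, 9.33 and 10.48 in OV17R, OV56 and OV7. The sets were 2.85 log2 units apart at their nearest lines, and the difference was -4.10 (17.1-fold, SE 0.49, adjusted p = 0.286). C1S, a serine protease of the classical complement pathway, lay at 4.61 to 5.35 in the JHOS lines and at 9.34, 6.66 and 6.98 in OV17R, OV56 and OV7. DPP4, a surface dipeptidyl peptidase, was nearly equal in the OV lines (9.49 to 9.63) and ranged from 4.46 to 7.26 in the JHOS lines (difference -3.50, SE 0.70, adjusted p = 0.624), and 1 of the other 22 lines reached the OV level. The second array of OV56, which was left out, had a DPP4 level of 5.53, within the range of the JHOS lines. MCTP1, a calcium-binding membrane protein, lay at 4.29 to 4.93 in the JHOS lines and 7.47 to 9.05 in the OV lines. IRAK3, an inhibitor of Toll-like receptor signalling, lay at 2.96 to 3.47 in the JHOS lines and 5.26 to 7.06 in the OV lines, a level that 1 of the other 22 lines reached. EREG (epiregulin), a ligand of the EGF receptor, lay at 5.24 to 5.57 in the JHOS lines, at 6.84 and 7.20 in OV17R and OV7 and at 12.01 in OV56, whose level sets most of the difference (-3.29, SE 1.38, adjusted p = 0.851). The gap junction connexin GJA1, the adaptor DAB2, the receptor LPAR3 for lysophosphatidic acid, the kinase FYN and the lactonase PON2 were also separated, with differences between -3.72 and -1.90. The others were DIPK1A, HYCC1, BCHE and NAPEPLD, besides ZEB1, LOX, FBLN1 and MAOA, which are given with their lists. NAPEPLD, which makes N-acylethanolamines, lay at 5.93 to 6.15 in the JHOS lines and 7.22 to 7.36 in the OV lines, and FAAH2, an amidase that degrades such lipids, lay at 5.98 to 6.34 and 4.69 to 4.95, in the opposite direction. Both had an adjusted p of 0.238.

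Of 32 extracellular matrix and collagen genes, 29 had the higher mean in the OV lines, with a median difference of -0.61 log2 units. The lines did not overlap for 5 of them (15.6%), all with higher levels in the OV lines (7.14% of all genes), and LOX and FBLN1 were separated. LOX (lysyl oxidase), which cross-links collagen and elastin, lay at 6.66, 5.91 and 7.33 in JHOS2, JHOS3 and JHOS4 and at 8.34, 11.43 and 11.13 in OV17R, OV56 and OV7 (difference -3.67, SE 0.89, adjusted p = 0.757). FBLN1 (fibulin-1) lay at 7.09 to 7.45 in the JHOS lines and at 8.94 to 10.64 in the OV lines, highest in OV7 (difference -2.30, SE 0.49, adjusted p = 0.663). FN1 (fibronectin) had the largest difference of the list, -3.76 (SE 1.74), but overlapped, with 11.76 and 10.30 in JHOS2 and JHOS3, 5.13 in JHOS4 and 11.56 to 13.81 in the OV lines. VIM (vimentin) followed the same split, at 10.60 and 11.30 in JHOS2 and JHOS3, 7.22 in JHOS4 and 10.78 to 12.26 in the OV lines. CDH2 (N-cadherin) overlapped, with 10.77 in JHOS2 and 8.99 in OV56. JHOS4 thus had the lowest levels of FN1, VIM and ZEB1 of the 6 lines. JHOS2 and JHOS3 combined junction genes with VIM levels near those of the OV lines, while FN1 was within the OV range in JHOS2 and below it in JHOS3.

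Markers of fibroblasts lay higher in the same lines. All 10 measured had the higher mean in the OV lines, with a median difference of -1.24, and 3 did not overlap (30.0%, against 7.14% of all genes). These were DCN, FAP and COL1A1, with narrow gaps of 0.0, 0.12 and 0.22 log2 units. Single arrays of the sets overlapped for DCN and FAP, whose OV17R levels (3.46 and 3.70) were close to those of the JHOS lines. Their mean level was 5.38 to 5.58 in the JHOS lines and 6.62, 5.93 and 7.52 in OV17R, OV56 and OV7. The defining marker LUM (lumican) lay at 10.02 in OV7 and at 2.82 to 3.01 in the other 5 lines, and DCN (decorin) at 9.03 in OV7, 4.56 in OV56 and 3.29 to 3.46 in the rest. PDGFRA and FAP were likewise highest in OV7, at 9.42 and 7.26. Without OV7, the LUM difference was 0.03 and that of PDGFRA 0.15. The part of these markers in the matrix result was not tested. Of 9 leukocyte markers, 7 had the higher mean in the OV lines (median -0.09), and 1 did not overlap (11.1%, against 7.14% of all genes), CD14, at 5.67 to 5.91 in the JHOS lines and 6.13, 6.05 and 7.79 in OV17R, OV56 and OV7. The pan-leukocyte marker PTPRC lay at 3.08 to 3.45, whereas CD68, a lysosomal protein abundant in macrophages, lay at 9.07 in JHOS2, 9.17 in OV56 and 9.02 in OV7 and lower in the other 3 lines. Of 7 mesothelial markers 6 had the higher mean in the OV lines and none was without overlap.

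Inflammatory genes had the higher mean in the OV lines for most members. Of 28 cytokines and NF-kB targets, 21 did so (median -0.42), and 5 did not overlap (17.9%), all with the higher levels in the OV lines (7.14% of all genes). The mean level of the list was 6.97, 6.27 and 6.45 in JHOS2, JHOS3 and JHOS4. It was 6.92, 8.13 and 6.88 in OV17R, OV56 and OV7, so JHOS2 lay above OV17R and OV7. CXCL8 (interleukin 8), a neutrophil chemokine, lay at 6.23 to 7.76 in the JHOS lines and at 8.38, 10.48 and 8.21 in OV17R, OV56 and OV7 (difference -2.14, SE 0.72). CXCL5 and the acute phase gene SAA1 overlapped, and both had their highest level in OV56, at 10.78 and 8.44. CXCL6, a chemokine, lay at 4.60 to 5.54 in the JHOS lines and 6.12 to 7.01 in the OV lines, and 1 of the other 22 lines reached the latter. Interferon-stimulated genes had no member without overlap among 30 measured, and their median difference was 0.09.

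Since the OV medium held hydrocortisone and the JHOS medium did not, 24 glucocorticoid response genes were followed. Of the 23 measured, 17 had the higher mean in the OV lines, with a median difference of -0.60 against -0.02 over all genes. The lines did not overlap for 7 of them (30.4%), all with the higher levels in the OV lines (7.14% of all genes), namely MAOA, ANGPTL4, DUSP1, TSC22D3, ZBTB16, CEBPD and ALOX15B, and none did so with the higher levels in the JHOS lines. The mean level of the 23 genes was 7.53 to 7.63 in the JHOS lines. It was 7.65 in OV17R, close to the JHOS lines, and 8.26 in OV56 and 8.75 in OV7. MAOA (monoamine oxidase A) lay at 5.50, 4.70 and 5.32 in JHOS2, JHOS3 and JHOS4 and at 6.97, 7.61 and 9.62 in OV17R, OV56 and OV7 (difference -2.89, SE 0.69, adjusted p = 0.757). It was the 1 separated gene of the list. DUSP1, a phosphatase that switches off MAP kinases, lay at 8.85 to 9.59 in the JHOS lines and 10.38 to 10.97 in the OV lines (difference -1.41, SE 0.28, adjusted p = 0.583). TSC22D3 (GILZ), a mediator of the anti-inflammatory action of glucocorticoids, lay at 7.17, 8.23 and 7.36 in the JHOS lines and at 8.41, 8.93 and 8.88 in OV17R, OV56 and OV7 (difference -1.15, SE 0.34). JHOS3 came within 0.18 log2 units of OV17R. ZBTB16 (PLZF), a zinc finger repressor, lay at 5.49 to 5.72 in the JHOS lines and at 6.55, 6.02 and 7.12 in OV17R, OV56 and OV7 (difference -0.93, SE 0.28). CEBPD, a bZIP factor, lay at 7.47 to 7.81 and 8.06 to 8.62 (difference -0.67, SE 0.23). The gaps of ANGPTL4 and ALOX15B were 0.06 and 0.02, and single arrays of the sets overlapped for both. The ALOX15B difference was only -0.09 (SE 0.11).

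Other members of that list overlapped. PER1, a clock gene, lay at 5.65 to 6.11 in the JHOS lines and 6.08 to 6.42 in the OV lines. KLF9 was at 6.52 to 7.11 in the JHOS lines and at 7.16, 7.03 and 8.24 in OV17R, OV56 and OV7. SGK1, a kinase of sodium transport, lay at 8.62 and 8.21 in OV56 and OV7 but at 5.44 in OV17R, the line given the lower dose of hydrocortisone, and at 5.42 to 6.26 in the JHOS lines. Of the 7 non-overlapping genes, MAOA, ANGPTL4, DUSP1 and TSC22D3 had their lowest OV level in OV17R, ZBTB16 and ALOX15B in OV56 and CEBPD in OV7, and with 1 line at 0.4 μg/ml dose and line cannot be told apart. The receptor itself, NR3C1, overlapped widely, with 9.25, 8.32 and 7.43 in JHOS2, JHOS3 and JHOS4 and 7.91, 8.13 and 9.05 in OV17R, OV56 and OV7 (difference -0.03, SE 0.54). FKBP5, a common reporter of this response, was not analysed here.

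Hydrocortisone is listed for 3 of the 28 lines, the OV lines, although the labels do not itemise the supplements of the MEGM part of the UWB1.289 medium. Among the other 22 lines, 2 reached the lowest OV level of MAOA, 2 that of TSC22D3, 2 that of CEBPD, 3 that of ZBTB16 and 6 that of DUSP1. With HEYC2 and OVCA420 as their second arrays alone, 1 line, FUOV1, reached that of ZBTB16, and the counts of the other 4 genes were equal. None of the other 22 lines reached the lowest OV level of all 7 non-overlapping genes, and the most that 1 line reached was 3. These 7 genes were chosen because every OV line lay above every JHOS line. That other lines match fewer of them follows in part from this choice, and no conclusion is drawn from it. FUOV1, which was grown in DMEM/F12 with 10% serum and neither hydrocortisone nor insulin, had 8.31 for TSC22D3, 6.73 for MAOA and 6.37 for ZBTB16, between the sets or within the OV range, and 7.63 for CEBPD and 9.54 for DUSP1, within the JHOS range.

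**Figure D3:**
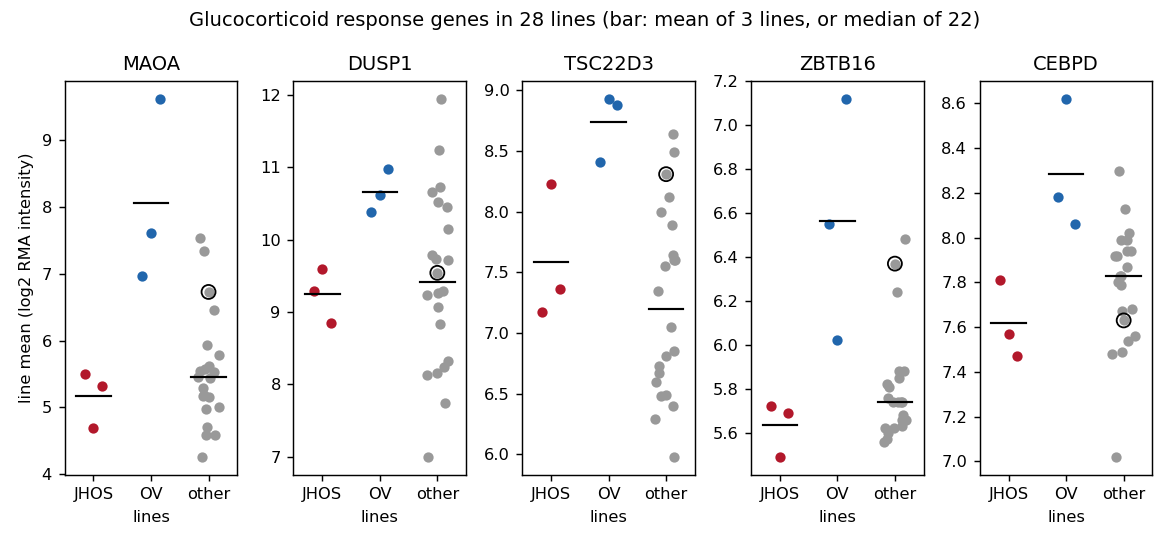
Line means in log2 RMA intensity (y axis, a separate scale for each gene) of 5 glucocorticoid response genes in the 3 JHOS lines (red), the 3 OV lines (blue) and the other 22 lines (grey), with bars for the mean of 3 lines or the median of the 22 and a ring around FUOV1, the other line grown in DMEM/F12. For each gene the 3 blue points lie above the 3 red ones, and between 2 (MAOA, TSC22D3, CEBPD) and 6 (DUSP1) of the grey points reach the lowest blue one.

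Lists tied to the other supplements showed smaller differences. Of 15 genes of the insulin and IGF axis, 9 had the higher mean in the OV lines (median -0.18), as did 53.6% of all genes. The lines did not overlap for 1 with higher levels in the JHOS lines (6.67%, against 5.38% of all genes) and 2 with higher levels in the OV lines (13.3%, against 7.14%). IGFBP7, an IGF-binding protein, lay at 7.01 to 8.41 in the JHOS lines and 8.95 to 10.18 in the OV lines (difference -1.65, SE 0.48). Of 26 genes of the amino acid response and serine synthesis, 15 had the higher mean in the JHOS lines (median 0.07) and 1 in each direction did not overlap (3.85%, against 5.38% and 7.14% of all genes), among them DDIT4, an inhibitor of mTORC1, at 8.17 to 9.08 in the JHOS lines and 9.55 to 11.36 in the OV lines. Of 24 sterol and fatty acid synthesis genes, 16 had the higher mean in the OV lines (median -0.07), and ELOVL6, a fatty acid elongase, was among the 3 without overlap, all with the higher levels in the OV lines (12.5%, against 7.14% of all genes). It lay at 6.89 to 7.76 in the JHOS lines and 8.31 to 9.12 in the OV lines. The 30 proliferation genes had a median difference of 0.04, and their mean level was 9.50 to 9.70 in the JHOS lines and 9.54 to 9.63 in the OV lines.

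Of 27 Müllerian and serous carcinoma markers, 21 had the higher mean in the JHOS lines (median 0.29). The lines did not overlap for 3 with higher levels in the JHOS lines (11.1%, against 5.38% of all genes) and 1 with higher levels in the OV lines (3.7%, against 7.14%). MECOM, a zinc finger factor often amplified in serous carcinoma, lay at 8.80 to 9.76 in the JHOS lines and 6.63 to 7.81 in the OV lines (difference 1.94, SE 0.40), and MUC16, which encodes CA125, at 7.81, 6.43 and 6.03 in JHOS2, JHOS3 and JHOS4 and 5.05 to 5.45 in the OV lines. WT1 was high in 1 line, OV17R (9.76), and at 6.07 to 7.03 in the other 5. SOX17 overlapped, with 8.43 to 8.82 in the JHOS lines and 10.17, 8.01 and 7.54 in OV17R, OV56 and OV7. Of 27 HOX genes, 21 had the higher mean in the OV lines (median -0.23), and HOXB6 was highest in OV56 and OV7, at 8.87 and 9.28, against 6.72 in OV17R and 5.78 to 6.67 in the JHOS lines.

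**Figure D4:**
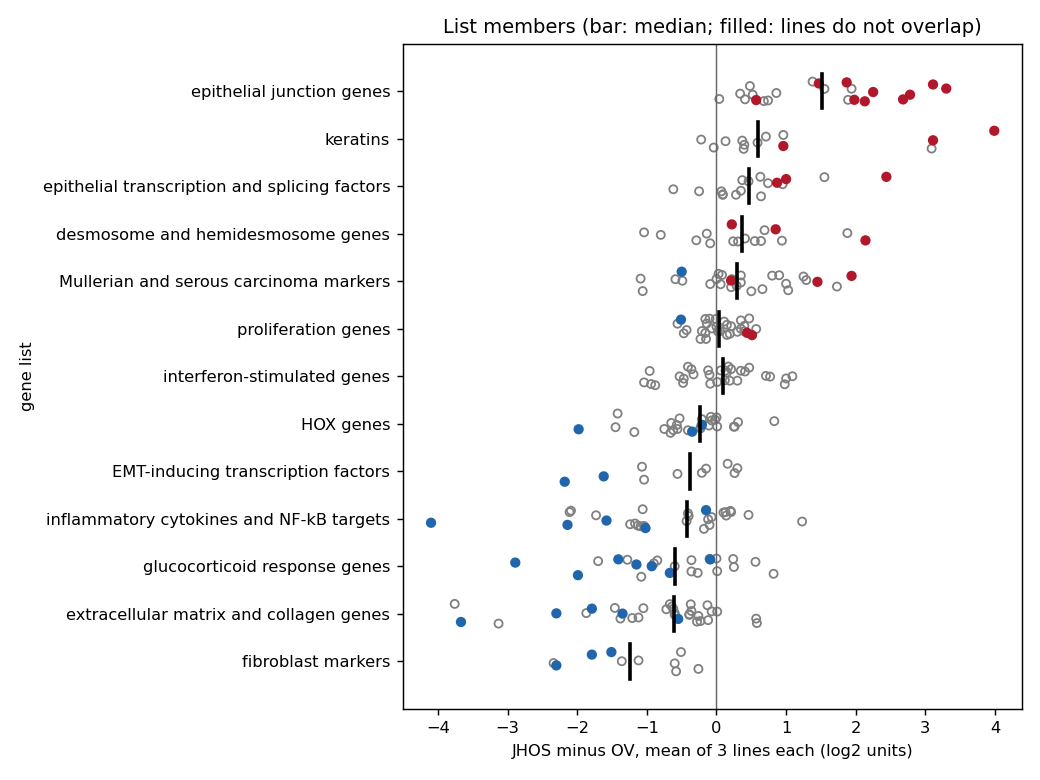
Difference of the set means, JHOS minus OV, in log2 units (x axis) for each measured member of 13 gene lists (y axis), with a black bar for the median of the list, filled points for genes whose lines do not overlap (red, higher in the JHOS lines, and blue, higher in the OV lines) and open points for the rest. The medians run from 1.51 for epithelial junction genes to -1.24 for fibroblast markers, with proliferation and interferon genes near 0.

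Genes of the study's EMT signature were also followed (197 epithelial and 223 mesenchymal genes). They are those for which the study lists numbers of CpG sites with EMT-correlated methylation, fewer than its full signature. They were not filtered by these numbers, and the study reports such sites in very few mesenchymal genes. The study derived the signature on ovarian lines, so this list is not independent evidence of direction. Of 182 measured epithelial genes, 160 had the higher mean in the JHOS lines (median 0.67), and the lines did not overlap for 61 with the higher levels in the JHOS lines (33.5%, against 5.38% of all genes) and 2 with the higher levels in the OV lines (1.1%, against 7.14%). Of 200 measured mesenchymal genes, 149 had the higher mean in the OV lines (median -0.21), and the lines did not overlap for 33 with the higher levels in the OV lines (16.5%) and 4 with the higher levels in the JHOS lines (2.0%). Of the 182 epithelial genes, 14 were separated with higher levels in the JHOS lines, as were 32 of all 18377 genes (0.174%). Of the 200 mesenchymal genes, 1 was separated with higher levels in the OV lines, as were 19 of all genes (0.103%).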

How the data were processed

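The authors normalized the Affymetrix arrays by RMA (affy 1.42.3 per the submitters' processing notes) and deposited log2 intensity values, from 1.35 to 14.89. The sources used here do not give which arrays were normalized together or whether duplicates are separate cultures. A single gene is annotated for 19310 of the 28869 probe sets, from which 18377 genes resulted. Probe sets with several genes (1752) or without a listed gene (7807) were left out. Where a gene had more than 1 probe set (685 genes), the brightest on average was used. Arrays were assigned to lines by their titles, with 1 spelled JHSO4 taken as JHOS4. The descriptions of the JHOS4 arrays give replicate numbers opposite to those of the titles, and the title numbers were used. Fits that use the replicate number depend on this choice. The arrays of a line were averaged, and sets were compared with limma 3.58.1 (trend and robust, R 4.3.3, statmod 1.5.0), with Benjamini-Hochberg adjustment over all genes. p-values measure the spread between lines, and the number of lines limits the precision. On simulated data with 18377 genes, this fit recovered 22% of true differences of 1 log2 unit, 76% of those of 2, 66% of those of 3 and 90% of those of 4, with 7 false calls. Each size was given to 50 genes. The simulated noise was normal and independent between genes, and spreads were shuffled among genes of like mean level. A changed gene thus did not keep its own spread, and these shares need not hold for the real genes. Other steps used Python, numpy and pandas.

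The lines, the 32 gene lists and the tests were chosen with earlier results of these data known. The text names 15 separated genes in each direction, at most 4 members per list (those of largest absolute difference), and 16 genes set in advance. The other separated genes, and CEBPD, ALOX15B, SPINT1, SPINT2, RAB25, CLDN1, PTPRC and CXCL6, were named after their values were seen. The EMT signature genes are all those for which a supplementary table of the study gives numbers of EMT-correlated CpG sites, fewer than its full signature. No filter on these numbers was used. Alternatives tried were the second OV56 array, the first array of each line, the second array of each line except OV56, and each line left out. Without first arrays, OV56 had no array and dropped out of the fit. Others were 11 arrays with line as a random block, a replicate block, the spread of 28 lines and the mean over probe sets. Further ones were a mean of at least 5 log2 units, a further quantile normalization, no trend or robust settings and no minimum difference or gap. The second arrays alone of HEYC2 and OVCA420 were added after the data were seen.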

Additional observations from a re-analysis of the deposited data

How the results depend on the processing

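With 3 lines in each set, the calls depend on how the spread is estimated. The limma fit of line means called 0 genes in either direction, and so did the fits with the spread shared with 28 lines, the mean over probe sets, a mean of at least 5 log2 units, a further quantile normalization, no trend or robust settings and no minimum difference. With the second array of OV56 included, 2 genes were called higher in the OV lines, both separated, and the median of all genes was -0.07. With each line or each replicate left out in turn, between 0 and 3 genes were called higher in the JHOS lines and between 0 and 1 in the OV lines, all 4 without JHOS4. The 11 arrays with line as a random block gave 27 and 23 calls, of which 33 were separated genes. Adding the replicate number as a block gave 15 and 4, of which 17 were separated genes, but same-numbered arrays of different lines share only a number (correlations of -0.138 to 0.18, 1 of 10 pairs over 0.1). The cause of these differences was not tested. Separated genes with higher levels in the OV lines numbered 12 with the second array of OV56. With no minimum gap there were 988 and 1313, and with a gap of 1 log2 unit asked of all arrays there were 19 and 11. With a line left out, a criterion that fewer lines must meet, they numbered 42 to 72 and 30 to 113, the latter without OV17R.

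None of the 30 genes with the largest differences changed sign in any of 16 alternatives, and of 1688 values of the genes named, 19 in 10 genes did. Those 30 were chosen for lines at least 1 log2 unit apart. Leaving out lines or arrays, or estimating the spread otherwise, could therefore not change their sign. With lines or replicates left out in turn, the JHOS minus OV difference ranged from -0.49 to 0.42 for NR3C1 (above 0 without replicate 2, JHOS4 or OV7), from -0.46 to 0.86 for SOX17 (below 0 without replicate 1, JHOS4, OV56 or OV7), from -1.02 to 0.82 for PAX8 (below 0 without JHOS2, JHOS3 or OV7), from -0.14 to 1.49 for KRT8 (below 0 without replicate 1), and, above 0 without OV7, from -2.16 to 0.15 for PDGFRA and from -3.56 to 0.026 for LUM. Above 0 without OV17R were DSC3 (-1.96 to 0.59), CDH5 (-1.35 to 0.37), EMCN (-1.16 to 0.032) and KDR (-0.90 to 0.26). With the second array of OV56, NR3C1 was at 0.19 and SOX17 at -0.038. The fit without replicate 1 holds no array of OV56, so its values for KRT8 and SOX17 also come without that line. An alternative chosen after the data were seen, HEYC2 and OVCA420 as their second arrays alone, moved the number of other lines that reached the lowest OV level of ZBTB16 from 3 to 1, and those that share the GRHL2 and ZEB1 levels of the JHOS and OV lines from 5 to 6 and from 6 to 7.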

Other observations

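Some markers were high in a single OV line. OV17R had the highest levels of the endothelial genes TEK (7.61), CDH5 (8.74), EMCN (5.49) and KDR (6.95), against at most 4.34, 6.45, 3.40 and 5.23 in the other 5 lines. All 8 endothelial markers had the higher mean in the OV lines (median -0.37), and none was without overlap. The desmosomal cadherin DSC3 was at 9.26 in OV17R and at 4.16 to 5.89 elsewhere. OV7 had the lowest RB1 level (5.60, against 8.60 to 9.69) and the highest CDH11 level (8.73, against 4.49 to 5.52).

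Growth factor receptors and ligands showed no shared direction by mean. Of 27 genes of FGF, PDGF, AXL, MET and Eph signalling, 12 had the higher mean in the JHOS lines and 15 in the OV lines. The lines did not overlap for 3, all with the higher levels in the JHOS lines (11.1%, against 5.38% of all genes). Of 11 ERBB receptors and ligands, 4 and 7 did so, and 1 in each direction did not overlap (9.09%, against 5.38% and 7.14%). FGFR2 lay at 7.38 to 9.16 in the JHOS lines and 5.66 to 7.25 in the OV lines (difference 2.09, SE 0.61), and EPHA1 at 6.95 to 7.25 and 5.47 to 6.08 (difference 1.32, SE 0.20). The Wnt antagonist DKK3 lay at 7.30 to 7.95 in the JHOS lines and 8.87 to 10.68 in the OV lines (difference -2.40, SE 0.52), and GREM1, a BMP antagonist, at 5.35 to 8.76 and 8.51 to 11.16 (difference -3.15, SE 1.06). HLA-DPA1, a class II antigen-presenting chain, lay at 5.28 to 5.63 in the JHOS lines and 6.38 to 7.48 in the OV lines (difference -1.45, SE 0.29). The tumour suppressor CDKN2A was at 5.86 and 6.08 in JHOS2 and JHOS4, at 9.35 in JHOS3 and at 8.87 to 10.17 in the OV lines. None of these genes passed the test in the fit of line means.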
